A study of Rattus norvegicus with 421 samples.

Results

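The nuclear genes of the respiratory chain and of the mitochondrial ATP synthase were followed through 98 treated groups of rat liver. They were taken as every probe set with exactly 1 gene symbol starting with Nduf, Uqcr, Cox4 to Cox8 or Atp5, or being Sdha to Sdhd. This gave 84 genes on 89 probe sets, out of 10411 genes on 12783 probe sets with 1 symbol. Grouped by the start of the symbol alone, they were 36 genes of complex I, 5 complex I assembly factors, 4 of complex II, 7 of complex III, 16 of complex IV and 16 of the ATP synthase. The start of a symbol need not match the complex in which the protein sits. Livers came from Wistar Hanover males of 8 to 10 weeks, with the strain label Crl:WI[Gl/BRL/Han]IGS BR, given 1 of 30 compounds or vehicle by gavage. Groups labelled in days were dosed every day for up to 14 days. Acetaminophen and its saline vehicle were sampled at 6 to 48 h. Each of the 293 treated and 128 vehicle arrays holds 1 animal, mostly 3 per group. In treated groups the 3 were picked from 5 for visible changes in liver histopathology, so their spread is that between picked animals. No such picking is described for vehicle animals. Every treated group was set against the vehicle group its label names, of the same day and study block.

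The respiratory chain passes electrons from NADH (complex I) and succinate (complex II) through complexes III and IV to oxygen, and the proton gradient so built drives the ATP synthase. Most subunits are encoded in the nucleus, made in the cytosol and imported, and hepatocytes, which are rich in mitochondria, express them at a high level. The compounds described most closely were ethionine at 200 mg/kg (ETH), the ethyl analogue of methionine; acetaminophen at 4250 mg/kg (Aap), an analgesic that injures the liver in overdose; dehydroepiandrosterone at 600 mg/kg (DHEA) and Wy-14643 at 60 mg/kg (Wy), which are peroxisome proliferators in the rat; and nifedipine at 3 mg/kg (Nif), a calcium channel blocker. Piperonyl butoxide at 1200 mg/kg (PBO), diethylstilbestrol at 10 mg/kg (DES), methapyrilene at 60 mg/kg (MPy) and cyproterone acetate at 100 mg/kg (CPA) followed. Acetaminophen was compared with saline, cyproterone acetate with corn oil and the others of these with carboxymethylcellulose. Ethionine, piperonyl butoxide and diethylstilbestrol shared vehicle arrays, as did dehydroepiandrosterone, Wy-14643, methapyrilene, thioacetamide and acetamide, so their comparisons are not independent.

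The starts of a few members are shown with letters known from nuclear control of mitochondrial genes. The 250 bases before the start were searched on both strands for GCGCATGC, the core bound by the factor NRF1, and CCGGAAG, the core bound by ETS factors such as GABP. Sequences are from RefSeq (GRCr8), 5′ to 3′ on the gene's strand, with matches in capitals, and matches that overlap were each counted. Only members that hold a core are shown. Ndufa6 (chr7:115750318-115750567, minus strand) and Ndufa11 (chr9:1637364-1637613, plus strand) were lower after ethionine at 1 and 3 days. Ndufaf4 (chr5:43401545-43401794, plus strand) was the member called most often. Ndufs1 (chr9:72073606-72073855, minus strand), which holds only an ETS core, was among the members most often called higher. Ndufs3 and Ndufb4, also called lower after ethionine on day 3, held neither core. Nor did Atp5if1, Ndufab1 and Ndufa3, which were called higher more often than Ndufs1.
Ndufa6: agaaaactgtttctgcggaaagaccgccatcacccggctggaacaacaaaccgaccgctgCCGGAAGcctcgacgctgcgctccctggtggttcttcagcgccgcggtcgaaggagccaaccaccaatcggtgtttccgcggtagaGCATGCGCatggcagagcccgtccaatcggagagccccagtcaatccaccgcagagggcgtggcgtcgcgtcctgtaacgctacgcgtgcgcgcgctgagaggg
Ndufa11: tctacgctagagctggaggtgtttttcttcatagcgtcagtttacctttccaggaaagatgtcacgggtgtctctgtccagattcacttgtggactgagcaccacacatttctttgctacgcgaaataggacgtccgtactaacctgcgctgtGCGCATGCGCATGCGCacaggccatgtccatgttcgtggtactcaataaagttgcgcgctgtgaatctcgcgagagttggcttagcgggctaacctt
Ndufaf4: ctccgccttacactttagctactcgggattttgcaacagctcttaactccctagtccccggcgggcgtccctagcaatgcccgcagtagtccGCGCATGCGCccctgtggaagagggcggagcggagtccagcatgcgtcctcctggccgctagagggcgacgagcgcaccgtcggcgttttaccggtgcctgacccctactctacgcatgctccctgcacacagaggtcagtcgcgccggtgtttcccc
Ndufs1: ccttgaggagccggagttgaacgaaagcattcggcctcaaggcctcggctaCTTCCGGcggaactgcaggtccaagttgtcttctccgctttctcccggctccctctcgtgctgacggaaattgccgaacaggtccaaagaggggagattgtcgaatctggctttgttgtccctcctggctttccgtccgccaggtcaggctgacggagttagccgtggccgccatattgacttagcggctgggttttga
A window was found for 76 of the 84 members, and the NRF1 core stood in 9 of them (11.8%), against 4.0% of the 8610 genes with a window. The ETS core stood in 20 (26.3%), against 13.3%. The genes that hold the NRF1 core were Atp5me, Atp5mg, Atp5po, Ndufa11, Ndufa6, Ndufaf4, Ndufaf5, Sdhb and Uqcrc1. After ethionine Ndufa6, which also holds an ETS core, and Ndufa11 were lower and Ndufaf4 higher. Changes of the other holders are not set beside them, and a role of the cores was not tested.

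Members were highly expressed. The median of their mean log2 signals was 11.34, against 7.84 over all genes, and 66 of the 84 had a mean of at least 10. Changes are therefore given beside the median of all genes and, where it matters, of the 1396 genes with a mean of at least 10. Members were also steady between animals: the median within-group SD was 0.109 log2 units, against 0.119 over all genes. Hepatocyte markers were high throughout, with list means of 12.67 to 13.45 in the groups described. In whole liver, fewer hepatocytes and less RNA per hepatocyte cannot be told apart.

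A few arrays stood apart in these genes. In array 3 of ethionine day 3 the median member lay 0.53 log2 units below its group mates, and 47 members lay more than 0.5 below. In array 1 of dimethylnitrosamine day 3 (4 mg/kg) the median was -0.47, with 38 members more than 0.5 below. Array 1 of the vehicle group CMC_1B_14d went the other way, with a median of 0.39 and 20 members more than 0.5 above. Array 2 of the vehicle group CMC_1H_14d lay at -0.24, with 5 members more than 0.5 below. That median is within the range of the arrays that were kept. On these 4 arrays the genes with a mean of at least 10 shifted by only -0.06, -0.06, 0.11 and -0.04, so the shift was not one of all abundant transcripts. Array 2 of ethionine day 1 and array 2 of its vehicle group CMC_1H_1d had normal medians (-0.02 and 0.02) but single members far off in both directions. On the first of them 11 members lay more than 0.5 below and 5 above, and 13.2% of all genes were off by that much. Array 1 of ethionine day 1 was about as far off on the other side, with 14 members above, 3 below and 12.9% of all genes off, and was kept. On array 2 of CMC_1H_1d 4 members lay more than 0.5 below and 3 above. Array 4 of that group had 4 and 2 and was kept. The 6 arrays were chosen after seeing the data, without a fixed limit. The main counts and leading genes of the groups that use these 6 arrays are therefore given with and without them. Among the other 415 arrays the median shift ranged from -0.27 to 0.32. A further 7 arrays carried transcripts of pancreas or skeletal muscle.

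**Figure D1:**
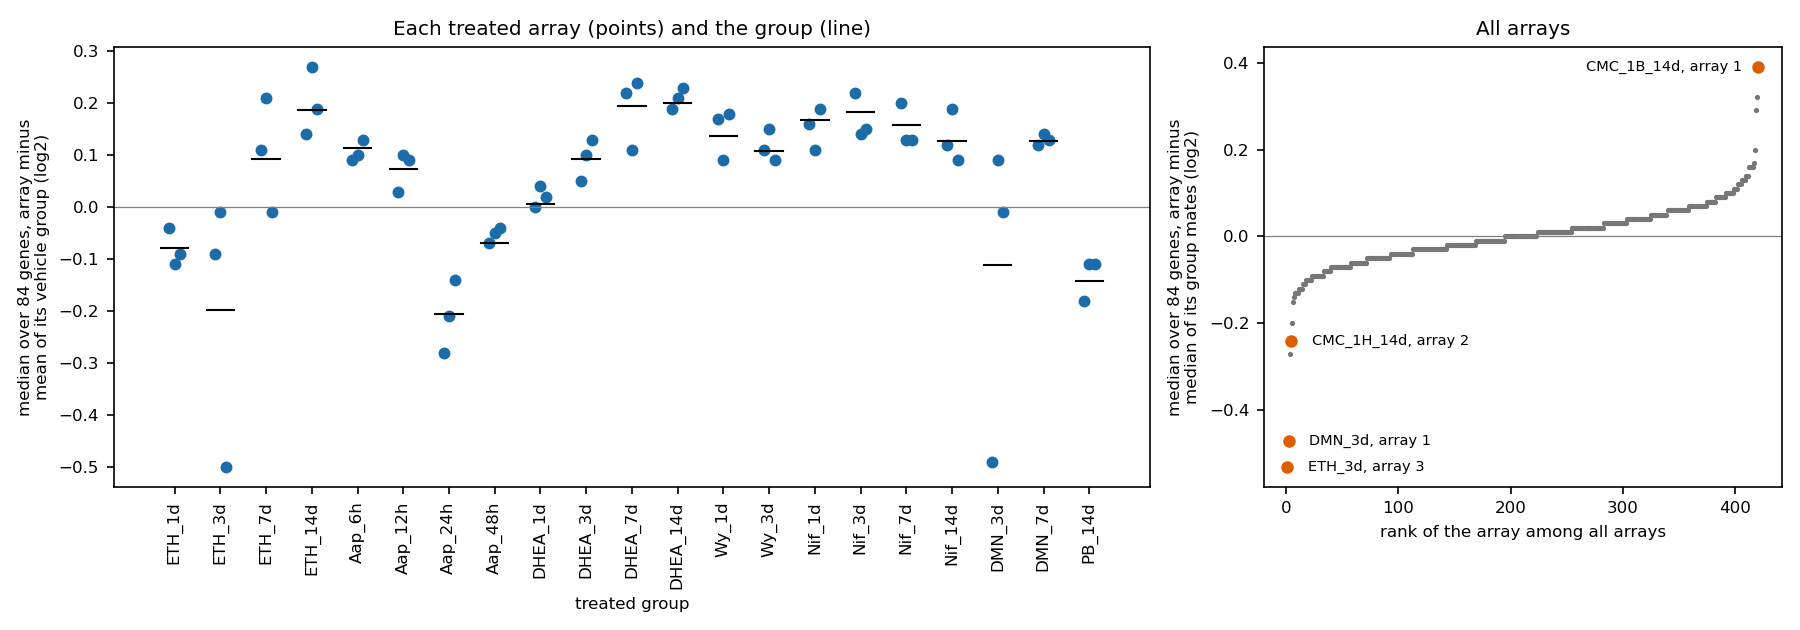
Shift of the 84 genes on single arrays. Left, median over the genes of each treated array minus its vehicle group mean (log2, points) with the group's median change (line). Right, all arrays ranked by the median difference from their group mates (log2), with the 4 arrays whose whole module shifted in orange. The fall of ethionine and of dimethylnitrosamine at day 3 came mostly from 1 array each (-0.50 and -0.49), whereas the 3 acetaminophen arrays of 24 h lay at -0.28, -0.21 and -0.14.

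Changes of 1.5-fold were rare in this module, and smaller shared shifts were common. A gene was called at an adjusted p below 0.05 (limma, Benjamini-Hochberg over all 15866 probe sets) and at least 1.5-fold. Over 8232 member tests 58 rises (0.705%) and 17 falls (0.207%) were called, against 1.13% and 0.78% of all genes. With no minimum fold, 555 members passed higher (6.74%) and 252 lower (3.06%), against 4.17% and 3.46%. These shares were not tested against each other. All calls came from 27 groups of 12 compounds. In 40 groups no member passed at any fold, and 79 groups had a member median within 0.1 of 0. The medians ran from -0.21 log2 units (acetaminophen, 24 h) to 0.20 (dehydroepiandrosterone, day 14). Of the 84 members 57 were never called.

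By complex, assembly factors passed higher most often, in 11.4% of their tests, and lower in 0.816%. Complex III subunits passed higher in 8.16% and lower in 1.9%. The ATP synthase followed at 7.97% and 3.0%, complex I at 6.49% and 3.94%, and complex IV at 4.78% and 1.79%. Complex II, succinate dehydrogenase, had more falls (5.36%) than rises (3.57%) and no call of 1.5-fold on the probe sets that stand for its genes. A further probe set of Sdhd, with a lower mean, was called lower at ethionine day 1 (-0.69).

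**Figure D2:**
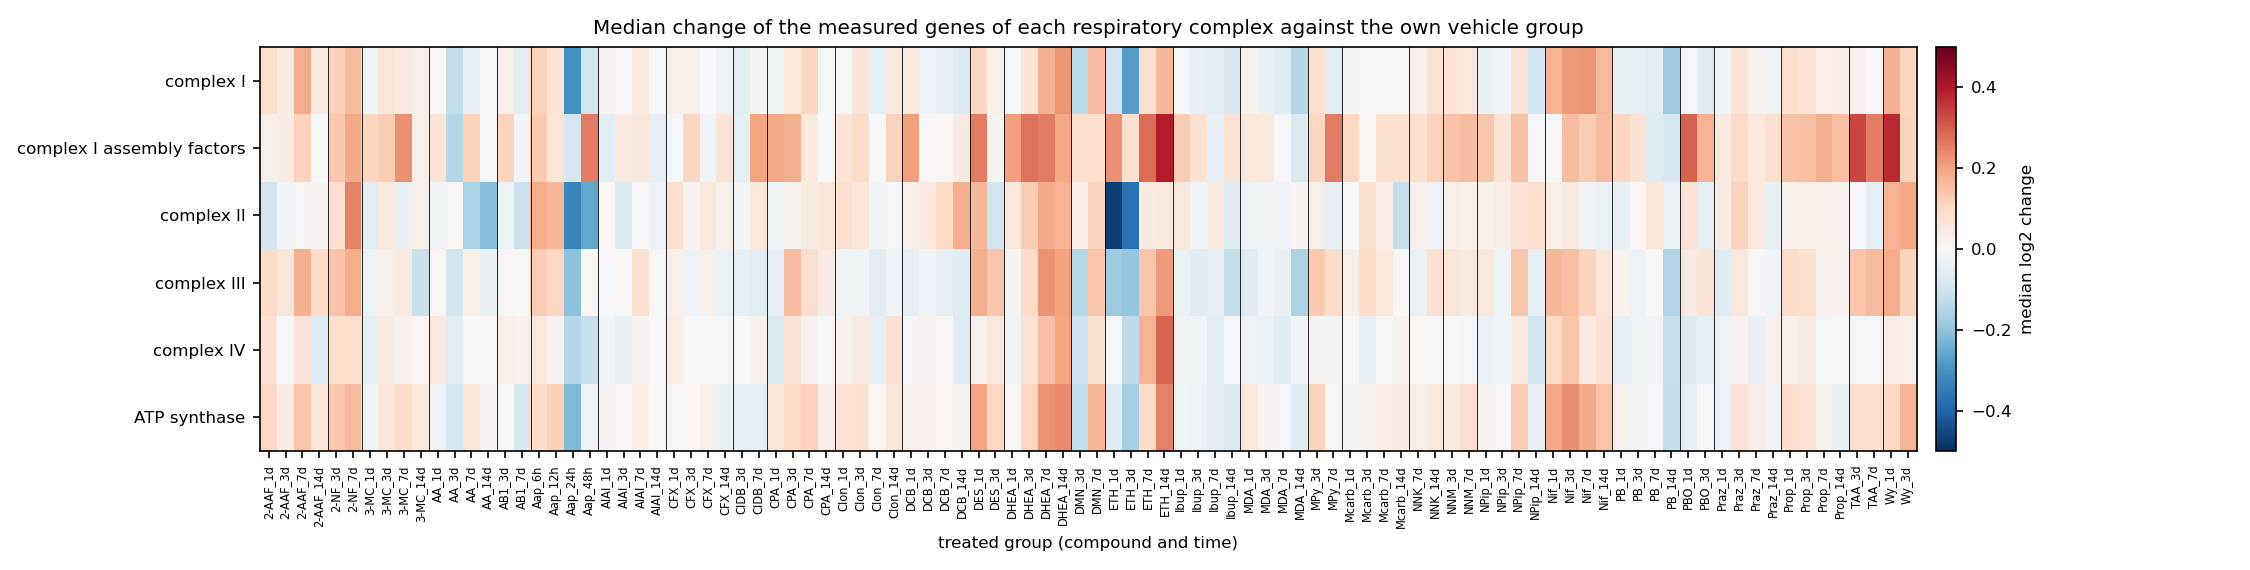
Median log2 change of the measured genes of each complex (rows) in each of the 98 treated groups (columns, code of the compound and time). Colour runs from -0.5 (blue) to 0.5 (red). Complex II is lowest at ethionine days 1 and 3 (-0.47 and -0.37), and the nifedipine columns are red in complex I and the ATP synthase but near 0 in complex II.

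Ethionine gave the most member calls, mostly downward on days 1 and 3 and upward on days 7 and 14. On day 1, 26 members passed lower and 7 higher, against 15.4% and 18.3% of all genes, and 6 were called lower at 1.5-fold (4.55% of all genes). On day 3, 42 passed lower (50.0% of members, 19.7% of all genes) and 8 higher (24.0% of all genes), and 9 were called lower (5.8% of all genes). On day 7 the count turned to 24 higher (11.1% of all genes) and 3 lower. On day 14, 38 were higher (14.1% of all genes) and 4 lower, and 6 were called higher (4.99% of all genes). The member medians were -0.08, -0.20, 0.09 and 0.19 log2 units in order of day. The genes with a mean of at least 10 had medians of -0.17, -0.12, 0.01 and -0.02, so on day 1 the members were less reduced than other abundant genes. Without the 6 arrays above, day 1 had 21 lower and 6 higher. After quantile normalization it had 19 lower and 14 higher. Without treated array 1 it had 28 lower and without treated array 2 it had 17. Day 3 then had 25 lower and 16 higher with a median of -0.07, and 4 falls and 4 rises were called. The day 3 medians of complex III, complex IV and the ATP synthase were then 0.03, 0.00 and 0.04, and that of complex I -0.09, so that the fall on day 3 across those complexes rests on array 3. Day 14 kept a median of 0.14, with 27 higher and 4 lower, and had 19 higher without vehicle array 2 alone. Without the 6 arrays its rise was uneven between complexes. Complex I had a median of 0.05, with 7 higher and 3 lower, and complex II one of -0.005. The medians of complex III, complex IV and the ATP synthase were 0.19, 0.20 and 0.22. With a variance from the ethionine and vehicle arrays of that day alone, 4 passed lower on day 1 and 15 higher on day 14.

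The largest falls of single genes were in complex I, whereas the lowest complex median was that of complex II on both early days. Ndufa6, an accessory subunit of the matrix arm, read 10.2, 10.24 and 9.51 log2 units on day 3, against 11.35, 11.21, 11.32 and 11.3 in the vehicle animals. All 3 treated animals lay below all 4 vehicle animals, by 1.31 ± 0.10 log2 units (SE, 2.48-fold, adjusted p = 1.176e-28). On day 1 the values were 10.29, 10.56 and 10.55, against 11.3, 11.44, 11.42 and 11.17 in the vehicle animals, a change of -0.87 (-0.88 without the 6 arrays). Ndufa6 was still lower on day 7 (-0.43 ± 0.11) and day 14 (-0.42 ± 0.11), when its arrays at 10.44, 10.94 and 10.79 overlapped with the vehicle array at 10.75, 1 of the 6 (-0.63 without them). Ndufa11, a membrane arm subunit, behaved alike: day 1 arrays at 10.68, 10.55 and 10.75 lay below vehicle arrays at 11.48, 11.57, 11.58 and 11.49. Its changes were -0.87, -1.03, -0.51 and -0.43 over the 4 days, and -0.80 on day 1 and -0.54 on day 14 without the 6 arrays. Ndufb4, another membrane arm subunit, read 10.64, 10.67 and 10.02 on day 3, against 11.48, 11.64, 11.45 and 11.46, a change of -1.07 ± 0.07. It was -0.35 on day 1, -0.38 on day 7 and -0.37 on day 14.

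Ndufs3, a core subunit near the quinone site, was lower on the early days only. It read 10.05, 9.7 and 9.7 on day 1 against 10.8, 10.58, 10.73 and 10.82 (-0.92 ± 0.08), and 10.12, 10.08 and 9.63 on day 3 (-0.85 ± 0.08). On day 14 its change was 0.11 ± 0.09 (adjusted p = 0.4119). The falls of Ndufa6, Ndufa11, Ndufb4 and Ndufs3 on day 3 kept 1.5-fold without the 6 arrays (-1.07, -0.85, -0.85 and -0.69). The other 5 falls called on day 3, in Atp5mf, Ndufa4, Uqcrh, Uqcr11 and Ndufb5, did not: they went from between -0.76 and -0.63 to between -0.51 and -0.35, with adjusted p still below 0.05. Atp5mf, a subunit of the ATP synthase membrane part, shows the pattern, with 11.15, 11.25 and 10.44 against vehicle arrays at 11.76, 11.54, 11.72 and 11.79.

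All 4 subunits of complex II, the enzyme shared with the citric acid cycle, passed lower on days 1 and 3. Sdha, the flavoprotein, changed by -0.52 ± 0.07 on day 1 and -0.32 ± 0.07 on day 3. Its arrays read 10.96, 11.1 and 10.99 on day 3, all below the vehicle arrays at 11.39, 11.28, 11.38 and 11.29. On day 1 they read 11.08, 10.13 and 10.69 against 11.27, 10.9, 10.98 and 11.46, and overlapped. The changes of Sdhb, Sdhc and Sdhd were -0.32, -0.43 and -0.56 on day 1 and -0.32, -0.42 and -0.47 on day 3. Without the 6 arrays all 4 still passed lower on both days, with medians of -0.34 and -0.27, and Sdha was -0.35 and -0.31. On day 14 no subunit of complex II passed, and the median was 0.04.

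Against this direction, Ndufaf4, an assembly factor of complex I, rose on every day of ethionine. Its day 3 arrays read 9.17, 9.65 and 9.77 against 7.71, 7.47, 7.8 and 8.06, a rise of 1.77 ± 0.18 (3.41-fold, adjusted p = 3.172e-18). The rises were 1.76, 0.94 and 1.19 on days 1, 7 and 14, without overlap on any of the 4 days. They were 1.36 on day 1 and 1.65 on day 3 without the 6 arrays. The others called higher on day 14 were Atp5if1 (0.82 ± 0.16), Ndufab1 (0.78 ± 0.09), Cox6a1 (0.67 ± 0.09), Atp5mpl (0.66) and Ndufaf8 (0.60). Ndufab1, the mitochondrial acyl carrier protein and a complex I subunit, read 12.07, 12.17 and 12.23 against 11.48, 11.18 and 11.47. Cox6a1, the liver form of a complex IV subunit, read 12.16, 12.36 and 12.3 against 11.65, 11.53 and 11.65. Both groups of 3 lay above all vehicle arrays. Atp5if1 was 0.63, Ndufab1 0.68 and Cox6a1 0.63 without the 6 arrays, and Atp5mpl and Ndufaf8 fell short of 1.5-fold, at 0.56 and 0.49.

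The turn over time was tested itself. The change at day 14 minus that at day 1 was called higher for 12 members and lower for 0 (4.08% of all genes called higher). With no minimum fold 42 passed, but the share of all genes passing was not counted. The largest differences were in Uqcrc2, a core protein of complex III (1.12), Ndufs3 (1.02) and Ndufa8 (0.95). Without the 6 arrays 7 of the calls were made, Ndufs3 (0.96) and Uqcrc2 (0.98) among them, and with a variance from these groups alone only 2. Day 1 values of Uqcrc2 were uneven: 11.06, 8.84 and 9.28 in the ethionine animals and 10.93, 9.48, 10.09 and 11.06 in the vehicle animals. Atp5pb, a stalk subunit of the ATP synthase, had the same low arrays (12.73, 10.22 and 11.95, against 12.64, 11.55, 12.29 and 12.57). Its day 1 fall (-0.63) was -0.16 without the 6 arrays (adjusted p = 0.2883). Atp5f1a, the alpha subunit of the catalytic part, read 12.51, 11.45 and 11.89 against 12.84, 12.39, 12.66 and 13.1 on day 1, overlapping at 1 array, and its fall of -0.80 was -0.67 without the 6 arrays.

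**Figure D3:**
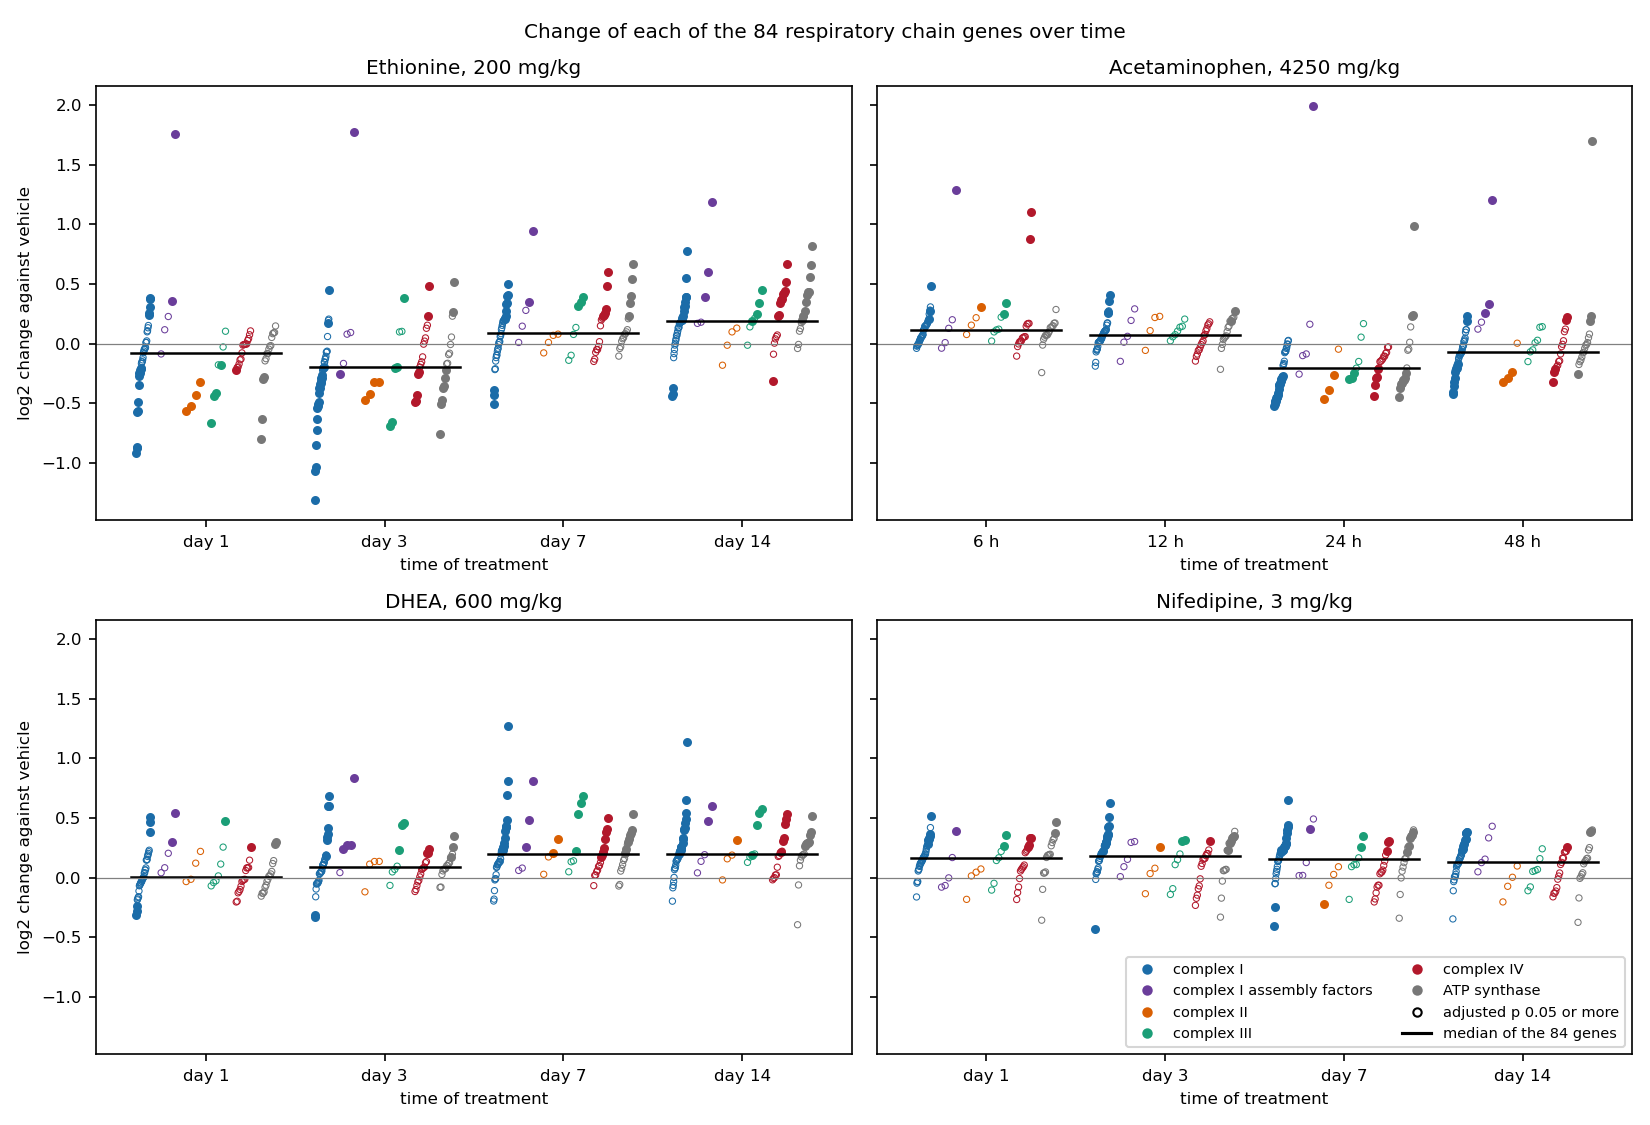
Log2 change of each of the 84 genes (points, coloured by complex, filled where adjusted p was below 0.05) against time for 4 compounds, with the median as a line. Ethionine turns from a median of -0.20 on day 3 to 0.19 on day 14, acetaminophen is lowest at 24 h (-0.21), and DHEA climbs to 0.20.

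Other lists moved with ethionine. Macrophage markers were called higher in 5 of 9 genes on day 1, 8 on day 3 and 7 on day 14, with 1 lower each time. Their list mean was 10.62 to 10.91 on day 3, against 9.09 to 9.38 in the vehicle animals. Their part in the result was not tested. Of 14 mitochondrial protein import genes 10 passed higher and 1 lower on day 3, with a median of 0.48, and Timm17a (1.25 ± 0.10) and Timm10 (1.15 ± 0.10) led. Vdac2, a porin of the outer membrane, was 1.08 ± 0.09 higher. Of 17 fatty acid oxidation genes 14 passed lower on day 1 (median -0.47), and of 11 citric acid cycle genes 7 did (median -0.36). On day 3 the 2 largest called changes of fatty acid oxidation genes were rises, in Cpt1a (1.67 ± 0.33) and Eci1 (1.45 ± 0.22). Those of citric acid cycle genes were falls, in Suclg2 (-0.78 ± 0.09) and Dld (-0.70 ± 0.14). 

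Acetaminophen lowered the members across all complexes at 24 h, with no fall of 1.5-fold. At 6 h 9 members were higher (8.41% of all genes) and 0 lower, and 4 were higher without the arrays of other tissue. At 12 h 6 were higher (2.78% of all genes). At 24 h 40 were lower (16.2% of all genes) and 4 higher (20.1%), and at 48 h 16 were lower (22.2%) and 10 higher (21.0%). At 24 h the medians were -0.30 in complex I, -0.33 in complex II, -0.20 in complex III, -0.14 in complex IV and -0.22 in the ATP synthase. The genes with a mean of at least 10 had a median of -0.09. Ndufa2, an accessory subunit of the NADH arm, read 9.65, 9.69 and 9.75 against 10.27, 10.21 and 10.2. It fell by 0.52 ± 0.11 log2 units (adjusted p = 2.567e-05) without overlap. Sdha read 10.87, 11.01 and 10.79 against 11.41, 11.27 and 11.36, and fell by 0.46 ± 0.08. At 48 h Sdha was still 0.32 lower (11.01, 11.04 and 10.99 against 11.28, 11.33 and 11.39). Leaving out single arrays gave 30 to 41 falls.

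A few members went up against this fall. At 24 h Ndufaf4 and Atp5if1 were called higher, and Atp5f1d (0.24) and Atp5pd (0.23), subunits of the ATP synthase, passed higher by less than 1.5-fold. Ndufaf4 at 24 h read 9.93, 9.66 and 9.75 against 7.8, 7.76 and 7.8, its largest rise anywhere (1.99 ± 0.19, 3.98-fold, adjusted p = 1.547e-19). Its rises were 1.29 ± 0.19 at 6 h and 1.20 ± 0.19 at 48 h, but at 12 h treated and vehicle arrays overlapped (0.06 ± 0.19, adjusted p = 0.9389), with vehicle arrays at 8.14, 8.69 and 8.36. Atp5if1, which inhibits ATP hydrolysis by the synthase, read 9.77, 10.14 and 9.49 at 48 h against 8.02, 8.06 and 8.22, a rise of 1.70 ± 0.16. At 24 h the rise was 0.99 ± 0.16, and at 6 h the change was -0.24 ± 0.16. Its change at 48 h minus 6 h (1.94) was the only one called higher, against 8.36% of all genes. Called lower were Cox6a2, Cox8b and Ndufv3, against 5.53% of all genes. Of 14 protein import genes 10 passed higher at 24 h (median 0.63), fatty acid oxidation genes had a median of 0.02, and the hepatocyte list mean was 13.04 to 13.17 against 13.06 to 13.2. At 48 h the red blood cell list mean was 8.25 to 8.54 against 10.15 to 10.65, and the macrophage list mean 10.4 to 10.71 against 9.35 to 9.6. Their part in the result was not tested.

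**Figure D4:**
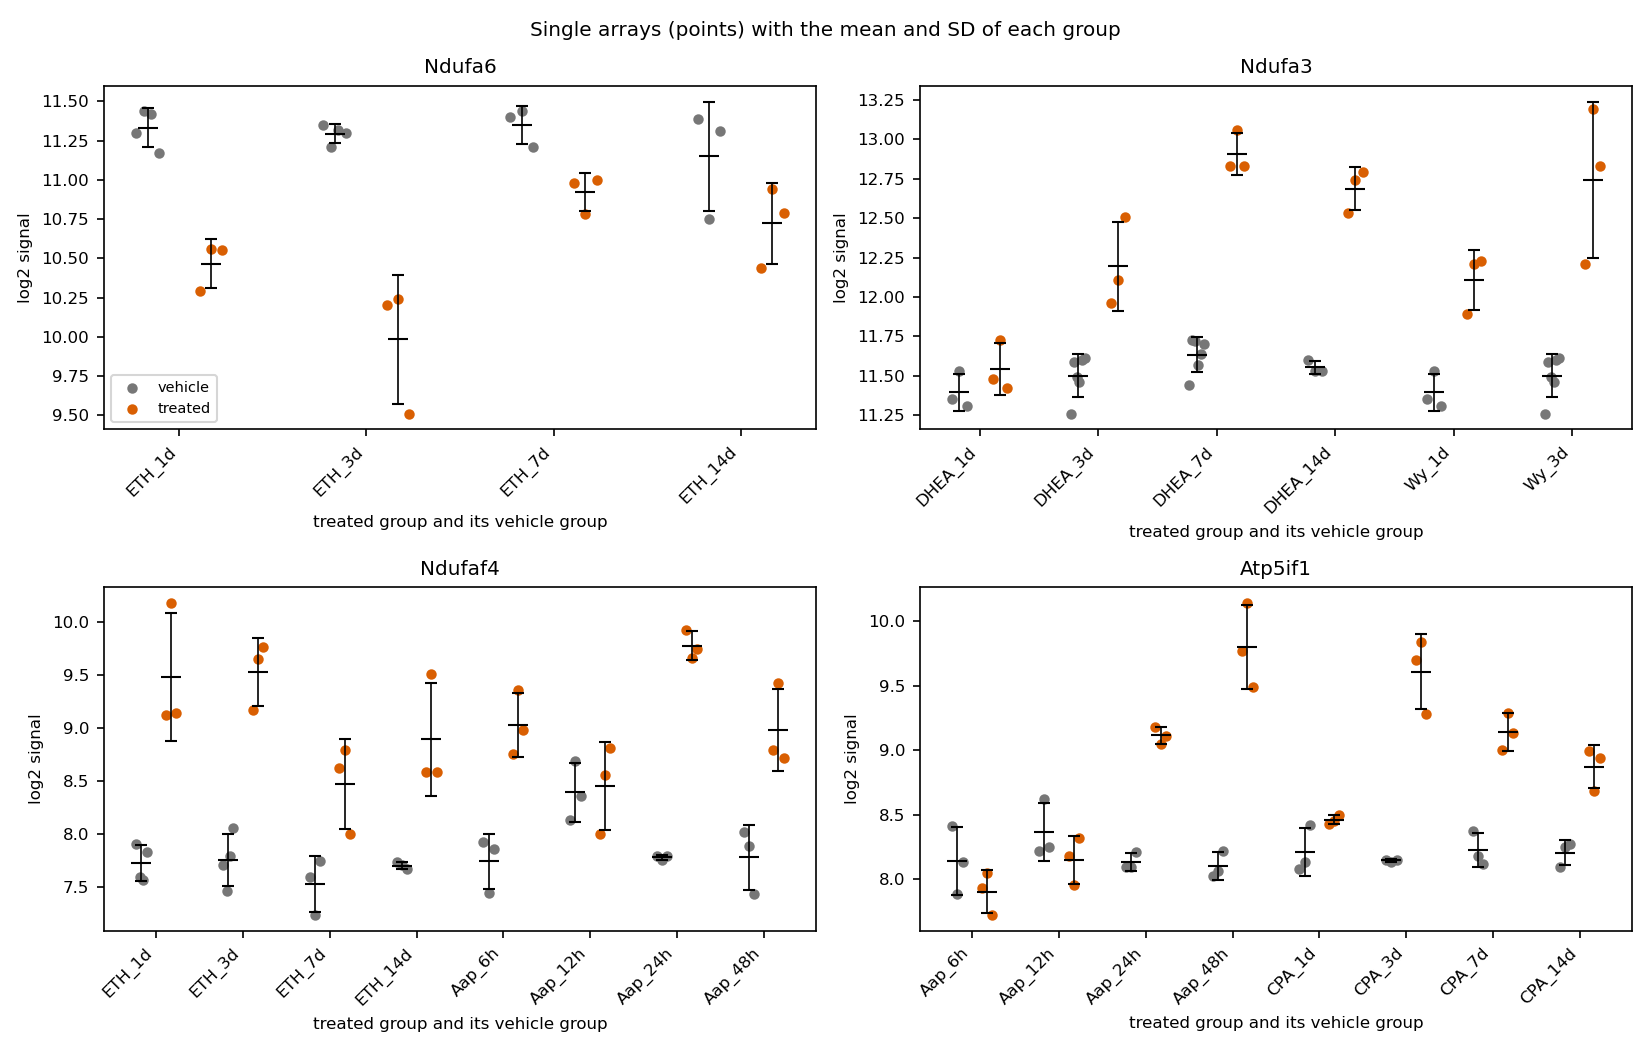
Log2 signal of 4 genes on each array (points) of treated groups (orange) and their vehicle groups (grey), with the mean and SD as bars. Ndufa6 is lowest at ethionine day 3 (9.51 to 10.24), Ndufa3 rises from day 3 of DHEA, Ndufaf4 is highest at 24 h of acetaminophen on average, and Atp5if1 reaches 10.14 at 48 h.

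At 6 h of acetaminophen 3 members were called higher (3.06% of all genes), namely Ndufaf4, Cox6a2 and Cox8b. The last 2 are muscle forms that were high on 1 array only, an array that carried muscle transcripts.

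Dehydroepiandrosterone raised the members progressively. Passing higher were 9 members on day 1 (7.55% of all genes), 21 on day 3 (10.6%), 41 on day 7 (13.8%) and 37 on day 14 (10.5%), and 0 passed lower on days 7 and 14. With single arrays left out, 28 to 32 passed higher on day 14. Members higher on both days 7 and 14 numbered 31. At 1.5-fold 6 were called on day 7 (3.47% of all genes) and 3 on day 14 (2.58%). The median over members was 0.20 on each of the 2 days, against -0.02 and -0.01 for the genes with a mean of at least 10. Complex medians on day 7 lay between 0.15 (complex IV) and 0.26 (assembly factors). Ndufa3, a small membrane arm subunit, rose most: 12.83, 13.06 and 12.83 on day 7, against a lowest of 11.44, a median of 11.67 and a highest of 11.73 in 6 vehicle animals. The rise was 1.27 ± 0.08 (2.42-fold), and the day 14 arrays at 12.53, 12.74 and 12.79 were again above the vehicle arrays at 11.6, 11.53 and 11.53 (1.14). On day 3 it was 0.69 and on day 1 0.15 ± 0.09 (adjusted p = 0.3198), where the arrays overlapped. The difference between day 14 and day 1 (0.99) was the 1 called among the members, against 0.951% of all genes.

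The other calls on day 7 were Ndufab1 (0.81 ± 0.08), Ndufaf4 (0.81), Ndufs1 (0.69 ± 0.09), Uqcrfs1 (0.69) and Uqcrc2 (0.63 ± 0.11). Ndufs1, the largest iron-sulfur subunit of complex I, read 10.13, 10.01 and 10.01 against a lowest of 9.15, a median of 9.38 and a highest of 9.52. Uqcrfs1, the Rieske iron-sulfur protein of complex III, read 12.36, 12.25 and 12.35 against a lowest of 11.51, a median of 11.64 and a highest of 11.74. No treated array of either overlapped with a vehicle array. Beside the members, 14 of 17 fatty acid oxidation genes were called higher on day 7 with a median of 1.12, led by Eci1 (3.07 ± 0.20) and Cpt2 (2.21 ± 0.15), and 10 of 11 citric acid cycle genes passed higher with a median of 0.49. The member median of 0.20 was below both. The red blood cell list mean was 9.31 to 9.73 against 10.31 to 10.88, and its part was not tested.

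Wy-14643 raised members on both of its days, 1 and 3, against vehicle arrays it shares with dehydroepiandrosterone. On day 1 27 passed higher (10.1% of all genes) and 0 lower, and on day 3 28 higher (12.2%) and 1 lower, with 3 called (2.83% of all genes). Ndufa3 read 12.21, 13.19 and 12.83 on day 3 against a lowest of 11.26, a median of 11.54 and a highest of 11.61, a rise of 1.24. The day 1 arrays at 11.89, 12.21 and 12.23 were above 11.35, 11.53 and 11.31, a rise of 0.71 ± 0.09. Ndufab1 (0.59) and Ndufaf4 (0.64), called on day 3, fell short without vehicle array 5 or treated array 2, and Ndufab1 also without vehicle array 4. Ndufab1 read 11.79, 12.08 and 11.95 against a lowest of 11.24, a median of 11.36 and a highest of 11.5, without overlap. Of 17 fatty acid oxidation genes 15 were called higher on day 3, with a median of 1.19. Array 3 of day 1 carried pancreas transcripts, and without the arrays of other tissue 21 members passed on that day. With single arrays left out, 19 to 25 passed higher on day 1.

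Nifedipine raised the members slightly on all 4 days. Passing higher were 16 on day 1, 24 on day 3, 29 on day 7 and 12 on day 14, against 1.08%, 4.6%, 8.38% and 4.31% of all genes. At most 3 passed lower. The member medians were 0.17, 0.18, 0.16 and 0.13, against 0.05, 0.06, 0.06 and 0.05 for genes with a mean of at least 10. After quantile normalization 15, 13, 17 and 8 passed higher. Of the rises, 17 on day 7 were in complex I and 6 in the ATP synthase, whereas complex II had medians between -0.03 and 0.06. The further probe set of Sdhd, outside these medians, passed lower on days 3, 7 and 14 (-0.35, -0.29 and -0.29). On day 1 it did not pass (-0.19). Ndufb7, a membrane arm subunit, was called on days 3 and 7. Its arrays read 10.98, 10.66 and 10.88 on day 3 against 10.15, 10.26 and 10.23, a rise of 0.63 ± 0.12. On day 7 they read 11.08, 10.82 and 10.71 against 10.33, 10.25 and 10.07 (0.65 ± 0.12). Atp5f1e, the epsilon subunit of the ATP synthase, and Cox7c, a complex IV subunit, were the other 2 higher on all 4 days. Atp5f1e rose by 0.33 to 0.39 and read 12.75, 12.83 and 12.83 on day 14 against 12.37, 12.44 and 12.42. Fatty acid oxidation genes had medians of -0.08 to 0.03 and citric acid cycle genes of -0.02 to 0.05. The other 5 compounds with the same vehicle arrays (cefuroxime, clonidine, ibuprofen, prazosin and propranolol) had 0 members passing on any day, and medians from -0.06 to 0.08. Without vehicle array 3 the day 7 count was 10, and without treated array 1 it was 9. With a variance from the arrays of that day alone it was 12.

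In the block of ethionine, a few members were called higher after a single day of piperonyl butoxide or diethylstilbestrol. With piperonyl butoxide members were called higher about as often as all genes. The member median was -0.01, with 20.2% of members passing higher and 13.1% lower. With piperonyl butoxide 17 passed higher (15.1% of all genes) and 11 lower (12.8%), and 4 were called (5.08% of all genes), Atp5if1 (0.93), Ndufaf4 (0.88), Uqcrc2 (0.71) and Ndufab1 (0.60). The balance of directions was not stable: after quantile normalization 13 passed higher and 19 lower, and without the 6 arrays 15 and 5. Atp5if1 read 9.05, 8.86 and 8.9 against 8.27, 7.76, 7.76 and 8.23, and Ndufab1 11.89, 11.79 and 11.89 against 11.24, 11.22, 11.32 and 11.23, both without overlap. With diethylstilbestrol, on 2 treated arrays, 20 passed higher (9.52%) and 3 were called (2.39%), Uqcrc2 (0.74), Atp5if1 (0.68) and Atp5pb (0.62). The Uqcrc2 arrays at 11.16 and 11.09 lay above vehicle arrays at 10.93, 9.48, 10.09 and 11.06, of which 2 were low. Without the 6 arrays Uqcrc2 was not called for either compound (0.41 and 0.43), and Atp5pb was 0.38. With diethylstilbestrol 15 members then passed higher and 1 was called.

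Methapyrilene had 11 members higher on day 3 (7.1% of all genes), and 6 after quantile normalization. The 2 called that day, Atp5if1 (0.64) and Ndufaf4 (0.60), were 0.57 and 0.56 after it and no longer 1.5-fold. On day 7 1 was called higher (1.92%) and 1 lower (0.941%), Atp5if1 (0.61) and Ndufv3 (-0.60). The Atp5if1 arrays at 8.98, 9.11 and 8.79 lay above a lowest of 8.11, a median of 8.38 and a highest of 8.54. This call was lost without vehicle array 2 or 4 or treated array 2, and that of Ndufv3 without vehicle array 3 or treated array 2. Cyproterone acetate raised Atp5if1 on days 3 (1.46), 7 (0.92) and 14 (0.66). The arrays of day 3 at 9.7, 9.84 and 9.28 were all above 8.15, 8.13 and 8.15, and on day 14 that was the 1 member called (0.672% of all genes). Ndufaf4 was higher on day 1 (9.06, 8.86 and 8.6 against 7.71, 7.73 and 7.55, a rise of 1.18) and at 0.15 ± 0.19 on day 14. That difference (-1.03) was the 1 called lower, against 1.24% of all genes.

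Elsewhere, 2-nitrofluorene at 44 mg/kg (2-NF, corn oil) had 19 members higher on day 7 (5.05% of all genes), 9 after quantile normalization, and 2-acetylaminofluorene at 1.2 mg/kg (2-AAF) 10 on day 7 (1.23%), though 4 without arrays of other tissue and 5 after quantile normalization. Thioacetamide at 19.2 mg/kg (TAA) had 17 higher on day 3 (10.3%), and acetamide at 3000 mg/kg (AA) 14 lower on day 3 (4.94%). Phenobarbital at 80 mg/kg (PB) had 6 lower on day 14 (1.4%), and 2-acetylaminofluorene 3 higher (4.99%). These last 2 share the vehicle group with the high array, and without the 6 arrays the counts were 0 and 22. Dimethylnitrosamine day 3 had 0 members passing with or without the 6 arrays, and its median was -0.11 with them and 0.03 without.

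Of the 58 rises, 28 were Ndufaf4 or Atp5if1. Ndufaf4 was called in 16 groups of 8 compounds and Atp5if1 in 12 groups of 6. Ndufab1 followed with 6 groups, Ndufa3 with 5 and Ndufs1 with 4. The falls were in Ndufa6, Ndufa11, Ndufs3 and Ndufv3 (2 groups each) and others once. Atp5if1 has 3 probe sets, and the calls rest on the one with the highest mean. The others were not called in any of the 12 groups, with changes between -0.30 and 0.41 and between -0.03 and 0.39. Ndufv3, a subunit with alternative transcripts, was lower in acetamide and methapyrilene on day 7 (-0.78 and -0.60) on 1 of 2 probe sets, and between 0.00 and 0.06 on the other. The acetamide arrays at 11.1, 10.41 and 10.51 were below a lowest of 11.27, a median of 11.48 and a highest of 11.71.

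Several members are tissue forms or paralogues of others. Cox6a2 and Cox8b, forms of muscle, read low in liver, with medians of 6.51 and 5.66. At 6 h of acetaminophen Cox6a2 read 6.45, 6.57 and 9.66 against 6.41, 6.52 and 6.45, and Cox8b 5.76, 5.78 and 8.44 against 5.77, 5.73 and 5.85. Both rises (1.10 and 0.87) came from array 3, on which the mean of skeletal muscle genes was 9.67, against 5.69 to 6.03 on the arrays without other tissue. The same was seen for Cox6a2 on day 7 of N-nitrosopiperidine at 20 mg/kg (NPip), with 6.61, 6.55 and 9.48 and a muscle mean of 9.89 on the third array. Without the 7 arrays the 3 changes were 0.05, -0.01 and -0.02. Cox7a1, also a form of muscle, did not follow, with 7.24 to 7.75 over all arrays. Cox4i2 (6.44 to 7.19), Cox6b2 (5.03 to 5.82) and Ndufa4l2 (5.71 to 6.21) moved in narrow ranges and were never called. Cox6c-ps1, counted with complex IV, is annotated as a transcribed pseudogene, and its signal and that of Cox6c may not be separate.

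**Figure D5:**
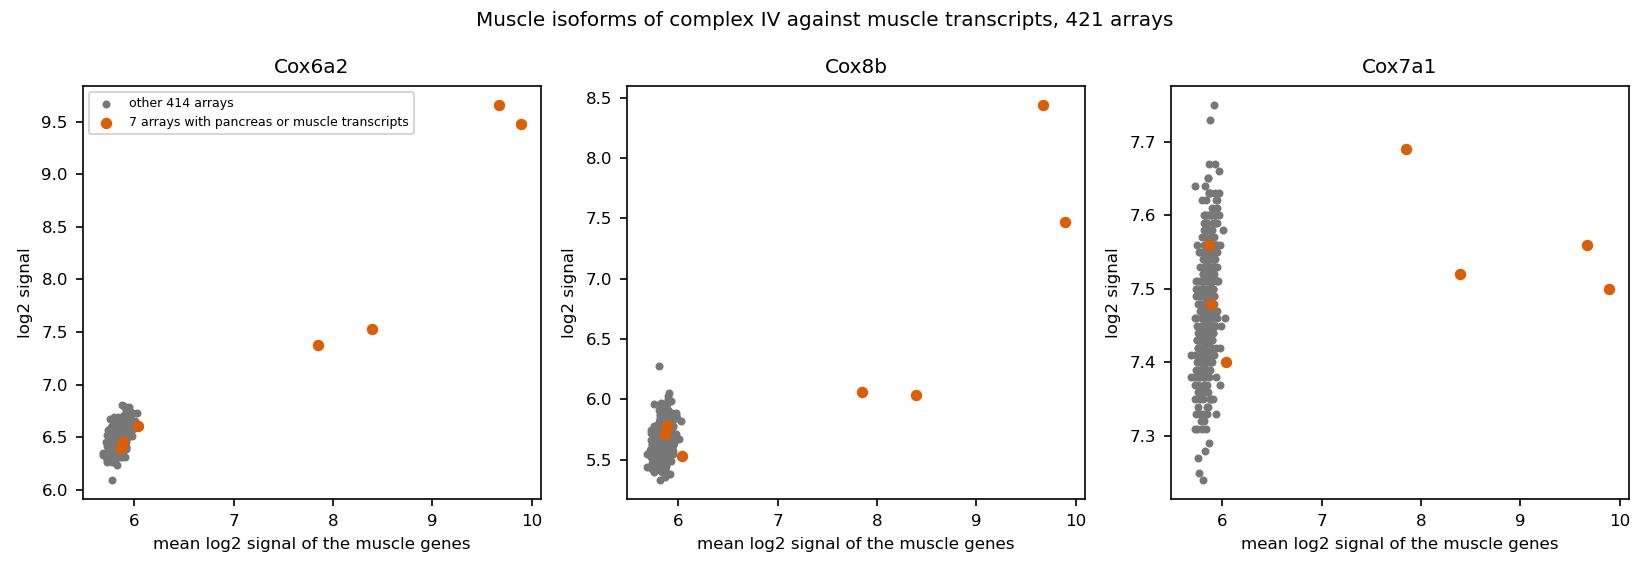
Log2 signal of 3 muscle forms of complex IV subunits against the mean log2 signal of skeletal muscle genes on all arrays, with 7 arrays that carry pancreas or muscle transcripts in orange. Cox6a2 and Cox8b climb with the muscle mean (to 9.66 and 8.44), and Cox7a1 does not.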

How the data were processed

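Total RNA of liver was hybridized to Affymetrix RAE230A arrays. The authors deposited log2 values of 15866 probe sets made with RMA, which subtracts background, brings arrays to 1 distribution and condenses the probes of a set (version not given in the sources used here). RMA equalizes arrays, so a change shared by all transcripts would not show. For arrays, their number limits the precision. Array medians were 7.38 to 7.49 and no pair of arrays was identical.

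Probe sets were named from the platform table; 12783 had 1 symbol, and 12748 matched a current gene by identifier. The probe set with the highest mean stood for a gene. The 7 probe sets of several symbols that include a member were left out. Groups, doses, times and vehicle groups came from the labels. limma 3.58.1 (R 4.3.3) fitted 1 mean per group over all arrays (285 residual and 4.67 prior degrees of freedom). Changes are log2 ± SE of this fit, whose shared variance can understate the spread of a gene with uneven arrays. Replicates are separate animals.

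The rule for main comparisons took, per compound, the day with the most members called, and the first 8 compounds. Named were the 3 largest rises and falls in each, the 5 most often higher or lower, tissue forms, and the 2 largest called changes of each other list. Other genes, the nifedipine, 24 h and 48 h acetaminophen groups and other days were described after their values were seen. Members and lists were chosen with earlier results of these data known.

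Same-numbered arrays did not deviate together (mean correlation 0.0131; every pair over 0.1 in 4 treated groups), so numbers were not taken as pairs. On simulated data for the day 14 DHEA comparison (15866 probe sets), 99 of 100 2-fold and 98 of 100 1.75-fold changes were called, with 2 false calls. Alternatives were own groups only, quantile normalization, a minimum mean of 6, the replicate block, no minimum fold, 7 arrays of other tissue left out and single arrays left out. Leaving out the 6 arrays that stand apart, and alternatives for counts with no minimum fold, were chosen after seeing the data. Figures used matplotlib 3.10.9.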

Additional observations from a re-analysis of the deposited data

Results flagged for a closer look

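In the vehicle group CMC_1H_3d the lowest of 4 arrays of Ndufs3 stood away from the others, with a gap of 0.927 of the range; 34 sets of arrays were looked at and chance marks about 1 in 20 of them.

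The change at the later time differed from that at the first in 12 members for ethionine (all higher), 1 for dehydroepiandrosterone (higher), 1 higher and 3 lower for acetaminophen and 1 lower for cyproterone acetate, by limma on the difference of the changes. For ethionine, day 14 minus day 1, the differences in log2 units were 1.12 for Uqcrc2, 1.02 for Ndufs3, 0.95 for Ndufa8, 0.88 for Cox6a1, 0.86 for Atp5pb, 0.84 for Ndufs1 and 0.78 for Uqcrh. They were 0.76 for Atp5f1a and for Ndufb5, 0.67 for Atp5if1 and for Atp5mpl, and 0.61 for Cox6c. Ndufa3 was 0.99 for dehydroepiandrosterone. For acetaminophen, 48 h minus 6 h, Atp5if1 was 1.94, Cox6a2 -1.31, Cox8b -0.96 and Ndufv3 -0.73, and the values of Cox6a2 and Cox8b at 6 h rest on the array with muscle transcripts. Ndufaf4 was -1.03 for cyproterone acetate.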

How the results depend on the processing

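Of 358 values under an alternative, 301 stayed within the limits set for them (counts within 1.5 times, medians within the spread). With own groups only, 0 members were called higher for diethylstilbestrol day 1 and 1 for acetaminophen 6 h, and the time differences went to 2 for ethionine, 2 for acetaminophen and 0 for cyproterone acetate. Quantile normalization moved the medians of piperonyl butoxide day 1 to -0.0503, diethylstilbestrol day 1 to 0.0646 and cyproterone acetate day 14 to 0.0652. The replicate block, with numbers not taken as pairs, left 1 call for Wy-14643 day 3 and 0 higher calls for methapyrilene day 7, where the lower call of Ndufv3 remained, and no other count of a main comparison moved by over 1.5 times. With no minimum fold the totals were 555 higher and 252 lower, with 42 lower for ethionine day 3. Higher were 41 for dehydroepiandrosterone day 7, 17 for piperonyl butoxide, 28 for Wy-14643, 20 for diethylstilbestrol, 9 for acetaminophen 6 h and 5 for methapyrilene. Time differences numbered 42 (ethionine), 12 (dehydroepiandrosterone), 9 (piperonyl butoxide), 1 (Wy-14643) and 19 (acetaminophen). The share of all genes was not counted for these time differences. Without the arrays of other tissue acetaminophen 6 h had 1. Without the 6 arrays that stand apart ethionine day 3 had 4 falls and a time difference in 7 members, diethylstilbestrol had 1 call, and the median of piperonyl butoxide turned to 0.0057.

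Leaving out single arrays gave 4 to 16 falls for ethionine day 3 (4 without array 3), 1 to 5 calls for Wy-14643, 1 to 4 for diethylstilbestrol (where 1 treated array is left and is assumed to vary like the other groups), 1 to 3 for acetaminophen 6 h and 0 to 1 higher calls for methapyrilene. With all arrays of 1 replicate number left out at a time, there were 49 to 61 rises and 19 to 29 falls in all. With single arrays left out and no minimum fold, there were 17 to 28 falls for ethionine day 1 and 19 to 39 rises for day 14. Medians ranged from -0.017 to 0.0064 for piperonyl butoxide, 0.0859 to 0.1223 for acetaminophen 6 h, -0.0372 to 0.0114 for methapyrilene and -0.0292 to 0.0316 for cyproterone acetate. The last values have no sign to speak of. The causes were not tested.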
